A study of Mus musculus with 4 samples.

Results

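Tumour endothelial cells, the cells that line the blood vessels of a tumour, were picked out of single-cell RNA sequencing data from mouse mammary tumours. A member was a cell with at least 3 unique molecular identifiers (UMIs, each standing for 1 captured RNA molecule) of Pecam1, Cdh5 and Kdr together and at least 1 of Cdh5 or Kdr. It also had no UMI of Ptprc, which encodes the leukocyte antigen CD45, and at most 2 UMIs of Rgs5, a pericyte gene. The rule found 395 endothelial cells among 28200 kept cells, those with at least 200 detected genes, at least 500 UMIs and at most 10% mitochondrial UMIs. The members were therefore chosen by measured values of 5 genes, and what those genes show in them is a description.

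The study follows the response of triple-negative breast cancer models to immune checkpoint inhibitors. Tumours of 2 mouse models were compared, each grown from tumour cells injected into the number 4 mammary gland of female mice and assigned to a group at a diameter of 5 mm. The T11-Apobec treated tumour grew in strain Balbc and received antibodies against PD1 (10 mg/kg) and CTLA4 (100 µg) biweekly for 7 days. The T11-Apobec untreated tumour grew in the same strain without therapy. The KPB25Luv treated tumour grew in strain FVB/NJ under the same antibodies, and the KPB25Luv untreated tumour grew in FVB/NJ without therapy. Each group was 1 library, so no comparison has a replicate and no test was possible. The intervals below are 95% intervals for counting error only. Model and host strain changed together and cannot be told apart.

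Endothelial cells form vessels with distinct zones. Arterial cells express connexins and Notch targets, capillary cells carry the machinery for lipid and solute exchange, and postcapillary venous cells display the selectins and chemokine-binding receptors that leukocytes use to leave the blood. In growing vessels, tip cells lead each sprout toward a source of vascular endothelial growth factor (VEGF). Tip cells are known for secreting apelin (Apln), endocan (Esm1), angiopoietin 2 (Angpt2) and placental growth factor (Pgf), and several of these genes, with adrenomedullin (Adm), are classic hypoxia-responsive genes.

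Apln, Esm1, Adm and Pgf are 4 tip-cell genes that were higher in T11-Apobec than in KPB25Luv endothelial cells. They were picked from a list of 22 genes, of which 10 were past 1.5-fold higher and 4 past 1.5-fold lower. Esm1, Pgf and Adm were raised in clusters 5 and 6 of T11-Apobec below, and Apln together with these in cluster 5. Their promoters are shown for that reason, each as the 300-base RefSeq window on GRCm38.p6 around the gene's start, 5′ to 3′ on the gene's strand. Capitals mark the core of the hypoxia response element, searched as ACGTG or GCGTG on both strands, so that CACGT and CACGC on the printed strand also count. The Apln promoter is at chrX:48034804-48035103 on the minus strand, the Esm1 promoter at chr13:113209409-113209708 on the plus strand, the Adm promoter at chr7:110627407-110627706 on the plus strand and the first of 2 listed Pgf promoters at chr12:85177264-85177563 on the minus strand.
Apln: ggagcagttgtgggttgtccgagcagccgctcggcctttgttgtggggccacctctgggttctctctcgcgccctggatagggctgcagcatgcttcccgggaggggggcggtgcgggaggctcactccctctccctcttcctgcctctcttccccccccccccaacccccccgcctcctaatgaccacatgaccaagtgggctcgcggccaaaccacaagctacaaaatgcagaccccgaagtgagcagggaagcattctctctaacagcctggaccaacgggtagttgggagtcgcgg
Esm1: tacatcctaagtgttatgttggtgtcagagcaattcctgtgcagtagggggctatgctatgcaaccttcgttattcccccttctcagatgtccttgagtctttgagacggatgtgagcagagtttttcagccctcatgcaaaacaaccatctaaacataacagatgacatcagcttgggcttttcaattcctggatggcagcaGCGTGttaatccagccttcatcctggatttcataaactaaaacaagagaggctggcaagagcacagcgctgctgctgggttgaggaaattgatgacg
Adm: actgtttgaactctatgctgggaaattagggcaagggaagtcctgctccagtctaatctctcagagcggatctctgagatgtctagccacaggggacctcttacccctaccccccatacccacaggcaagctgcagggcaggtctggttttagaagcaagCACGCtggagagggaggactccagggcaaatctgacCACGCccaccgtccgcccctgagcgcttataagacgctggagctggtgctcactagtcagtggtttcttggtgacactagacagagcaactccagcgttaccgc
Pgf: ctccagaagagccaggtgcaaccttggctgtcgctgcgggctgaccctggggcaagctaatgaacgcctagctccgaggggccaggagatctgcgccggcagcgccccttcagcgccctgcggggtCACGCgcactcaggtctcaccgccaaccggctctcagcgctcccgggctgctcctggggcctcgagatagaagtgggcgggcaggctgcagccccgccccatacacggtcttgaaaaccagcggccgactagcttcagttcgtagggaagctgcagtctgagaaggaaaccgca
The core was found 2 times in the Adm window, 1 time in the Esm1 window, 1 time in the printed Pgf window, 0 times in the other Pgf window and 0 times in the Apln window. Of all 32851 promoters of this length in the table, 43.8% hold at least 1 such core, so its presence does not set these genes apart. A match describes the letters of the window only.

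The untreated libraries supplied nearly all endothelial cells. The rule found 7 of 6131 kept cells in the treated T11-Apobec library, 0.114% with an exact Clopper-Pearson interval of 0.0459 to 0.235%. In the untreated T11-Apobec library it found 303 of 10321 cells, 2.94% (2.62 to 3.28%). The treated KPB25Luv library held 7 of 5273 cells, 0.133% (0.0534 to 0.273%), and the untreated one 78 of 6475 cells, 1.2% (0.953 to 1.5%). In both models the interval of the treated library lay below that of the untreated one, and among untreated libraries that of T11-Apobec lay above that of KPB25Luv. Cells without a Ptprc UMI numbered 2081 of 6131 kept cells in treated and 8164 of 10321 in untreated T11-Apobec. In KPB25Luv they numbered 991 of 5273 in treated and 3855 of 6475 in untreated tumours. Since the libraries differed in this way, the endothelial share was also taken among cells without a Ptprc UMI. It was then 0.336% (0.135 to 0.692%) in treated and 3.71% (3.31 to 4.14%) in untreated T11-Apobec tumours. In KPB25Luv it was 0.706% (0.284 to 1.45%) in treated and 2.02% (1.60 to 2.52%) in untreated tumours. The shares depend on how each tumour dissociated, and whether fewer vessels or fewer recovered vessel cells lay behind a low share was not tested.

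**Figure D1:**
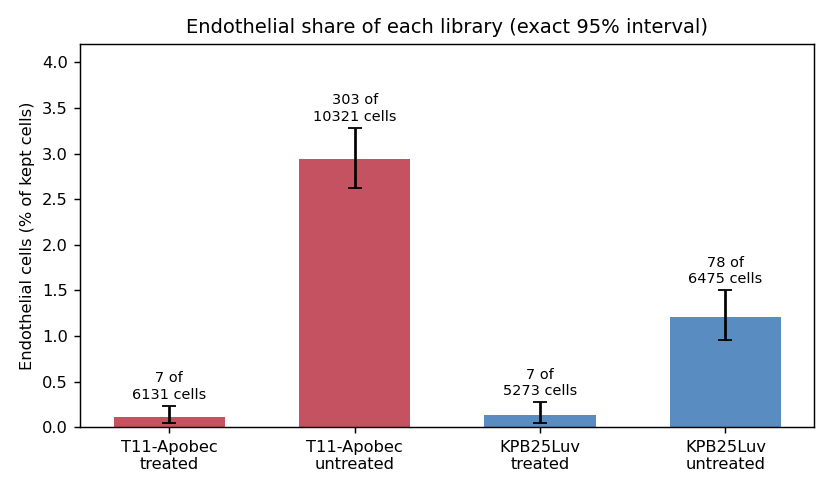
Endothelial cells as a percentage of kept cells in each library (bars), with exact Clopper-Pearson 95% intervals and the number of cells above each bar. The treated libraries stand at 0.114% and 0.133%, against 2.94% and 1.2% in the untreated ones.

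Cells with exactly 3 UMIs of the 3 genes, just inside the rule, numbered 2 in treated and 16 in untreated T11-Apobec, and 0 in treated and 5 in untreated KPB25Luv. Cells with exactly 2 such UMIs that met the other conditions numbered 3 in treated and 21 in untreated T11-Apobec, and 1 in treated and 3 in untreated KPB25Luv. A Ptprc UMI alone kept out 4 cells of treated and 17 of untreated T11-Apobec and 4 of treated and 12 of untreated KPB25Luv, and 3 or more Rgs5 UMIs alone 0 of treated and 7 of untreated T11-Apobec and 1 of treated and 0 of untreated KPB25Luv. When cells were thinned to 2000 UMIs before the rule, 3 members were found in treated and 193 in untreated T11-Apobec, and 6 in treated and 42 in untreated KPB25Luv. Pecam1, a junctional adhesion molecule, was found in 292 of the 303 untreated T11-Apobec members, Cdh5, the vascular cadherin, in 299, and Kdr, the main VEGF receptor, in 185. In untreated KPB25Luv the 3 genes were found in 75, 76 and 64 of 78 members.

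The label was checked against 23 pan-endothelial genes that the rule did not use. Every untreated member had UMIs of at least 6 of the 23 in T11-Apobec (median 15) and of at least 11 in KPB25Luv (median 18). Egfl7, a secreted vessel-specific factor, had a UMI in 98.0% of T11-Apobec and 98.7% of KPB25Luv members, and Plvap, the diaphragm protein of fenestrae, in 92.4% of T11-Apobec and all 78 KPB25Luv members. Of the 7 treated T11-Apobec members, 2 had under 3 of the 23 genes, which goes against the label for those cells. In that library 2 of the 7 members held over 30 UMIs of macrophage markers per 10000 UMIs. Whether these were the same cells was not tested. The treated KPB25Luv members had at least 10 of the 23.

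Some members carried RNA of other cell types. In untreated T11-Apobec, 20 cells with a median of 16457 UMIs, against 5068 over all members there, were led by genes such as Inhba, Loxl3 and Scx and had 5 fibroblast markers raised. A further 12 cells had all 12 macrophage markers raised. These 32 cells formed clusters 7 and 8 below. Results are given with all 303 cells and, for part of the lists and genes, also with the other 271. No KPB25Luv cluster was set aside, although its cluster 1 had 5 macrophage and 3 epithelial markers raised. KPB25Luv members held far more RNA of 12 epithelial and tumour markers, which summed to 35.8 CPM (73 UMIs) in T11-Apobec and 956 CPM (771 UMIs) in KPB25Luv. Krt8, an epithelial keratin, stood at 9.31 CPM in T11-Apobec and 282 CPM in KPB25Luv members, below the 10.7 CPM of T11-Apobec T cells and the 1121 CPM of KPB25Luv T cells. CPM scales the UMIs of a gene, summed over the cells, to a total of 1000000 UMIs. T cells should lack RNA particular to endothelial or epithelial cells, so the level of such a gene in them is given as its background. For genes that T cells express themselves, the level is a comparison and not a background. Whether that level came from free RNA, from doublets or from the T cells themselves was not tested. The T cells were 268 in untreated T11-Apobec (median 2315.5 UMIs) and 1472 in untreated KPB25Luv (median 6169.5 UMIs).

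The summed levels of most other marker lists differed between the untreated libraries. Fibroblast markers summed to 320.5 CPM in T11-Apobec and 63.25 CPM in KPB25Luv, and to 64.24 CPM in T11-Apobec without clusters 7 and 8. Macrophage markers summed to 918.7 CPM in T11-Apobec and 933.9 CPM in KPB25Luv, and to 246.4 CPM in T11-Apobec without the 2 clusters. Pericyte and smooth muscle markers summed to 102.9 CPM in T11-Apobec and 320 CPM in KPB25Luv, T and B cell markers to 33.8 CPM in T11-Apobec and 163.7 CPM in KPB25Luv, and neutrophil markers to 14.7 CPM in T11-Apobec and 146.3 CPM in KPB25Luv. Platelet markers came to 16.2 CPM in T11-Apobec and 38.5 CPM in KPB25Luv, and red cell markers to 3 UMIs in each. Their part in the differences below was not tested.

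The untreated models were compared gene by gene on UMIs summed over 303 T11-Apobec cells (2040875 UMIs) and 78 KPB25Luv cells (806321 UMIs). Of 8606 genes with at least 20 UMIs in both libraries together, 1196 (13.9%) were at least 1.5-fold higher and 1322 (15.4%) at least 1.5-fold lower in T11-Apobec, with a median log2 ratio of −0.03. Either direction came to 29.3%. At 2-fold, 5.47% were higher and 6.03% lower. These shares are the background for every list below. Without clusters 7 and 8 the shares were 13.7% higher and 16% lower. Genes near their T cell level were set aside by keeping those whose T cell level was at most 25% of the endothelial level in the library with more of the gene. Of the 1001 such genes, called clear genes below, 17.5% were higher and 25.8% lower.

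Tip-cell and sprouting genes leaned toward T11-Apobec. Of 22 listed genes, all measured, 10 were past 1.5-fold higher and 4 past 1.5-fold lower, with a median log2 ratio of 0.37. The 10 higher genes were Apln, Esm1, Angpt2, Pgf, Cxcr4, Adm, Trp53i11, Mcam, Pdgfb and Plxnd1. The 4 lower genes were Kcne3, Ednrb, Ramp3 and Inhbb. Of its 21 clear genes, 9 were higher and 4 lower. Without clusters 7 and 8, 11 were higher and 2 lower, with a median of 0.55, and Ramp3 and Inhbb were no longer past the fold.

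Apln, the ligand of the apelin receptor, had 963 UMIs (472 CPM) in T11-Apobec and 51 UMIs (63.3 CPM) in KPB25Luv endothelial cells, a log2 ratio of 2.89 (2.49 to 3.34). In T cells it stood at 11.6 CPM in T11-Apobec and 5.30 CPM in KPB25Luv. Esm1, a secreted proteoglycan, had 407 CPM in T11-Apobec and 78.1 CPM in KPB25Luv, a log2 ratio of 2.37 (2.01 to 2.78). Pgf, a ligand of the VEGF receptor Flt1, had 230 CPM in T11-Apobec and 18.6 CPM in KPB25Luv, a log2 ratio of 3.58 (2.89 to 4.48), the widest gap of the list. Angpt2, which loosens vessels through the receptor Tek, had 181 CPM in T11-Apobec and 64.5 CPM in KPB25Luv, a log2 ratio of 1.48. Adm, a vasodilator peptide, had 93 UMIs in T11-Apobec and 7 in KPB25Luv, a log2 ratio of 2.30 (1.29 to 3.75). The chemokine receptor Cxcr4 stood at 101 CPM in T11-Apobec and 42.2 CPM in KPB25Luv, but at 39.7 CPM in T11-Apobec T cells. The adhesion molecule Mcam stood at 269 CPM in T11-Apobec and 105 CPM in KPB25Luv, a log2 ratio of 1.35.

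Not all tip-cell genes followed. Kcne3, a potassium channel subunit that marks tip cells, was lower at 235 CPM in T11-Apobec against 585 CPM in KPB25Luv, a log2 ratio of −1.32 (−1.50 to −1.13). Ednrb, an endothelin receptor, was lower at 94.6 CPM in T11-Apobec against 169 CPM in KPB25Luv. Inhbb, an activin subunit, stood at 86.7 CPM in T11-Apobec and 136 CPM in KPB25Luv, a log2 ratio of −0.66 that was −0.38 without clusters 7 and 8. Dll4, the Notch ligand by which tip cells restrain their neighbours, was nearly level at 179 CPM in T11-Apobec and 174 CPM in KPB25Luv, a log2 ratio of 0.04 (−0.24 to 0.34).

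Depth differs between the libraries, so the share of cells with a UMI was taken after each cell was thinned to 2000 UMIs. This kept 294 of 303 T11-Apobec and 78 of 78 KPB25Luv endothelial cells, and 155 T cells of T11-Apobec and 1292 of KPB25Luv. Apln was found in 40.5% (34.8 to 46.3%) of T11-Apobec and 6.41% (2.11 to 14.3%) of KPB25Luv cells. Unthinned, these shares were 59.4% in T11-Apobec and 20.5% in KPB25Luv. In thinned T cells they were 1.29% in T11-Apobec and 0.697% in KPB25Luv. Esm1 was found in 35.7% (30.2 to 41.5%) of T11-Apobec and 5.13% (1.42 to 12.6%) of KPB25Luv cells, with 1.94% of T11-Apobec and 0% of KPB25Luv T cells. Adm was found in 8.16% (5.30 to 11.9%) of T11-Apobec cells. It was found in 0 of 78 KPB25Luv cells, where the exact interval reaches 4.62% of cells with a UMI at that depth. Unthinned, Adm was found in 15.2% of T11-Apobec and 7.69% of KPB25Luv cells. Kcne3 shares overlapped at 32.0% (26.7 to 37.6%) in T11-Apobec and 35.9% (25.3 to 47.6%) in KPB25Luv, although its summed level differed. At equal depth, then, the intervals of Apln and of Esm1 did not overlap between the models.

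**Figure D2:**
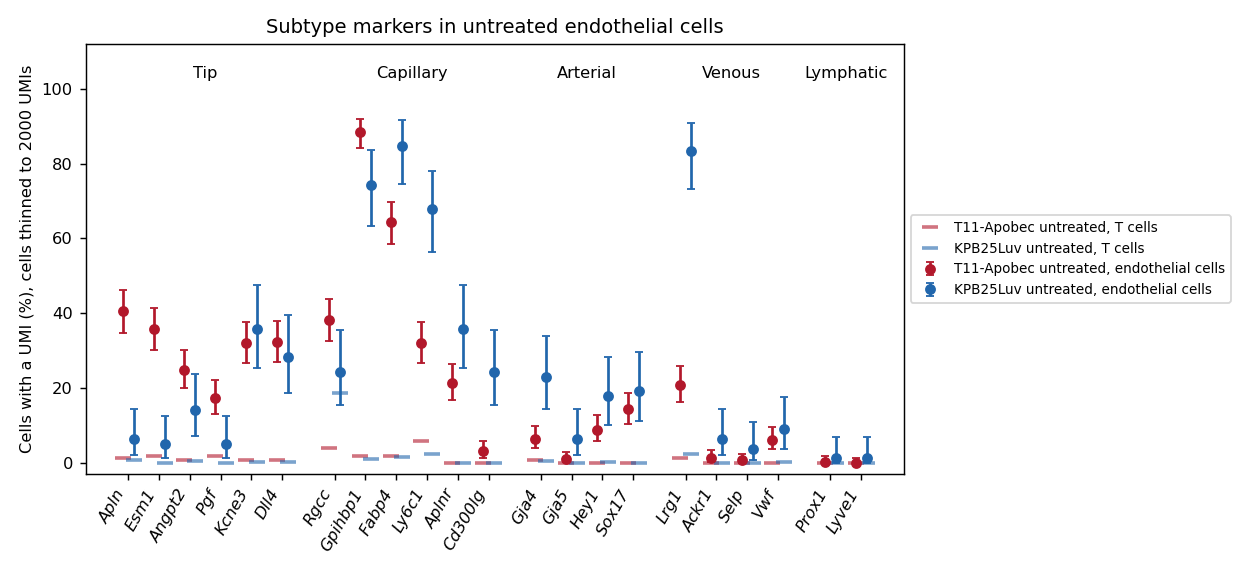
Percentage of untreated endothelial cells with a UMI of each subtype marker after thinning to 2000 UMIs (points, exact 95% intervals), with T cells of the same library as short bars. Apln and Esm1 stand higher in T11-Apobec (40.5% and 35.7%) than in KPB25Luv (6.41% and 5.13%), and Lrg1 lower (20.75% against 83.3%).

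Venous and postcapillary genes leaned toward KPB25Luv. Of 16 measured of 19 listed genes, 2 were higher, 8 were lower and 6 lay between, with a median log2 ratio of −0.81, lower than those of the tip-cell, capillary and arterial lists. Only 6 of the 16 were clear genes, and of these 0 were higher and 4 lower. Without clusters 7 and 8, 15 genes were measured, 0 of them higher and 10 lower. Lrg1, which encodes a secreted glycoprotein that acts on TGF-beta signalling in vessels, had 355 UMIs (174 CPM) in T11-Apobec and 1155 UMIs (1432 CPM) in KPB25Luv, a log2 ratio of −3.04 (−3.22 to −2.87). It lies on chromosome 17, at positions 56119678 to 56122001 of GRCm38 on the minus strand. Thinned, Lrg1 was found in 20.75% (16.3 to 25.8%) of T11-Apobec and 83.3% (73.2 to 90.8%) of KPB25Luv endothelial cells, with 1.29% of T11-Apobec and 2.32% of KPB25Luv T cells. Most KPB25Luv and a minority of T11-Apobec endothelial cells thus held Lrg1 at equal depth.

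The adhesion receptors of venules were rare in both. Ackr1, the atypical chemokine receptor of venules, had 32 UMIs (15.7 CPM) in 10 T11-Apobec cells and 46 UMIs (57.0 CPM) in 8 KPB25Luv cells, a log2 ratio of −1.86 (−2.56 to −1.18). Selp, which encodes P-selectin, had 17 UMIs in T11-Apobec and 43 in KPB25Luv, a log2 ratio of −2.65. Sele, which encodes E-selectin, had 1 UMI in T11-Apobec and 6 in KPB25Luv. Thinned, Ackr1 was found in 1.36% (0.372 to 3.45%) of T11-Apobec and 6.41% (2.11 to 14.3%) of KPB25Luv cells, intervals that overlap. Vwf, the von Willebrand factor gene, stood at 22.5 CPM in T11-Apobec and 47.1 CPM in KPB25Luv. Vcam1 and Apoe, also past the fold, were higher in KPB25Luv T cells (97.2 and 1723 CPM) than in the KPB25Luv endothelial cells (33.5 and 661 CPM), which is not above that background.

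The arterial list had no member past 1.5-fold higher and 9 lower among 17 measured of 20 genes, with a median log2 ratio of −0.62. Its 14 clear genes, which leave out Stmn2, Fbln2 and Clu, had 0 higher and 7 lower, with a median of −0.55. Gja5, the connexin 40 gene of arterial cells, had 9 UMIs (4.41 CPM) in 5 T11-Apobec cells and 44 UMIs (54.6 CPM) in 12 KPB25Luv cells, a log2 ratio of −3.57 (−4.85 to −2.58). Gja4, the connexin 37 gene, had 182 UMIs (89.2 CPM) in T11-Apobec and 201 UMIs (249 CPM) in KPB25Luv, a log2 ratio of −1.48 (−1.78 to −1.19), and 59 of the T11-Apobec UMIs were in 1 cell. Thinned, Gja4 was found in 6.46% (3.94 to 9.91%) of T11-Apobec and 23.1% (14.3 to 34.0%) of KPB25Luv cells. Hey1, a Notch target of arteries, stood at 53.9 CPM in T11-Apobec and 114 CPM in KPB25Luv, and Sox17, an arterial transcription factor, at 81.8 CPM in T11-Apobec and 89.3 CPM in KPB25Luv, a log2 ratio of −0.13 (−0.53 to 0.29).

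Capillary genes split within the list. Of 16 measured of 18 genes, 2 were higher and 8 lower, with a median log2 ratio of −0.59, and its 14 clear genes had 2 higher and 7 lower. One of the lower genes, Kdr, belongs to the rule, and the other 15 had 2 higher and 7 lower, with a median of −0.58 that missed 1.5-fold. Without clusters 7 and 8, 3 were higher and 6 lower. Ly6c1, a surface protein of capillary cells, stood at 202 CPM in T11-Apobec and 759 CPM in KPB25Luv, a log2 ratio of −1.91 (−2.09 to −1.73). Cd300lg, a mucin-like receptor of capillaries, had 35 UMIs (17.2 CPM) in T11-Apobec and 97 UMIs (120 CPM) in KPB25Luv, a log2 ratio of −2.80. Car4, a carbonic anhydrase anchored to the capillary surface, had 1 UMI in T11-Apobec and 28 UMIs in 5 KPB25Luv cells. Fabp4, a fatty acid carrier, stood at 1917 CPM in T11-Apobec and 3155 CPM in KPB25Luv, a log2 ratio of −0.72 that was −0.50 without clusters 7 and 8.

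On the other side, Gpihbp1, which anchors lipoprotein lipase to the capillary wall, stood at 2306 CPM in T11-Apobec and 1563 CPM in KPB25Luv. Its log2 ratio was 0.56 (0.47 to 0.65), and 0.78 without clusters 7 and 8. Meox2, a transcription factor of capillary fatty acid uptake, stood at 80.4 CPM in T11-Apobec and 23.6 CPM in KPB25Luv, a log2 ratio of 1.74 (1.08 to 2.54). Rgcc stood at 301 CPM in T11-Apobec and 164 CPM in KPB25Luv, but at 184 CPM in KPB25Luv T cells, so its summed KPB25Luv level was not above the T cell level. The capillary median missed 1.5-fold in 11 alternative settings and the arterial median in 8, which the closing section gives.

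**Figure D3:**
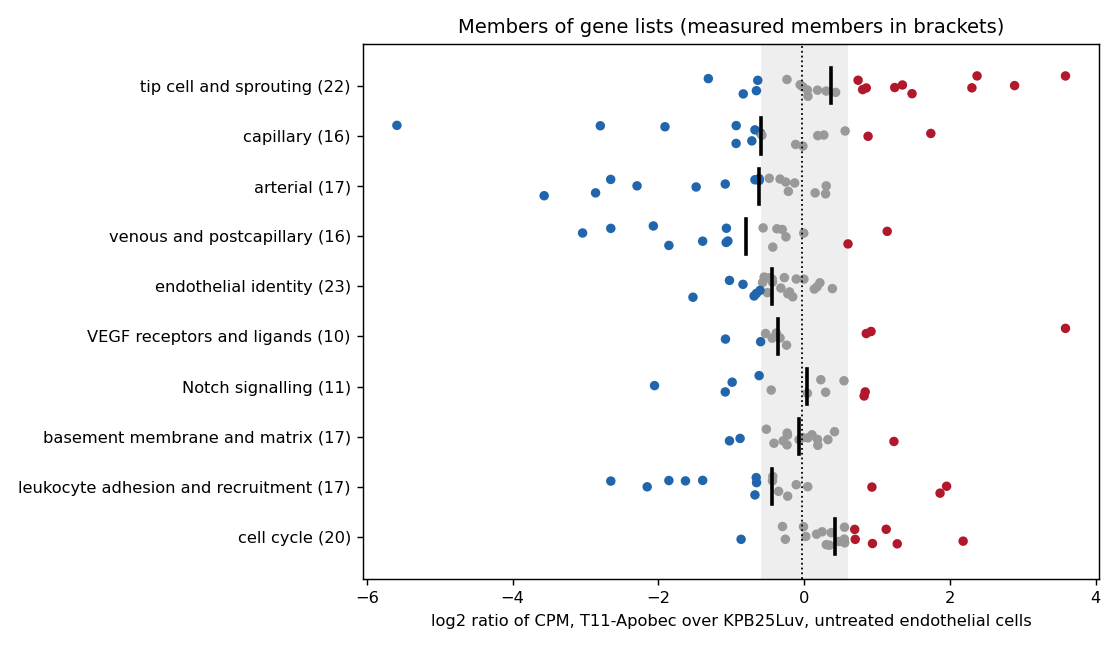
Log2 ratio of CPM, T11-Apobec over KPB25Luv, for measured members of 10 gene lists (points) with each list's median (black bar), the range within 1.5-fold shaded and the median of all genes (−0.03) dotted. The arterial list has no member past 1.5-fold higher, and the tip-cell list has 10 higher and 4 lower.

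Few genes of high endothelial venules and lymphatic vessels could be measured. Of 11 high endothelial venule genes 3 were measured, with B3gnt3 lower, and of 12 lymphatic genes 3 were measured, with Nts lower. Prox1, the transcription factor that sets lymphatic identity, had a UMI in 1 thinned cell of each library. Lyve1 had a UMI in 1 thinned KPB25Luv cell. It had none in 294 T11-Apobec cells, where the exact interval reaches 1.25% of cells with a UMI at that depth. Glycam1, a ligand of L-selectin made by high endothelial venules, was in 0 T11-Apobec cells and 1 KPB25Luv cell. These defining genes were thus at or near 0 in both libraries, while some other members of the same lists were found more often. Unthinned, Flt4, the receptor for VEGF-C, had a UMI in 28.7% of T11-Apobec and 44.9% of KPB25Luv cells, and B3gnt3, a glycosyltransferase, in 6.27% of T11-Apobec and 24.4% of KPB25Luv cells.

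Among the 23 pan-endothelial genes, 0 were past 1.5-fold higher and 6 were lower (median −0.44). All 23 were clear genes. The 26.1% lower was near the 25.8% of all clear genes, while 0% were higher against 17.5% of all clear genes, whose median was −0.14. Without clusters 7 and 8, 1 was higher and 3 lower (median −0.22). Cldn5, the tight-junction claudin of vessels, stood at 711 CPM in T11-Apobec and 1272 CPM in KPB25Luv, and Mmrn2, a vessel matrix protein that binds Cd93, at 197 CPM in T11-Apobec and 402 CPM in KPB25Luv, a log2 ratio of −1.03. Of the genes of the rule, Pecam1 stood at 630 CPM in T11-Apobec and 604 CPM in KPB25Luv, Cdh5 at 767 CPM in T11-Apobec and 532 CPM in KPB25Luv and Kdr at 198 CPM in T11-Apobec and 300 CPM in KPB25Luv.

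Signalling lists differed in how many members were past the fold. Among 10 measured VEGF receptor and ligand genes, 3 were higher and 2 lower, Kdr and Nrp2, of which Kdr is a gene of the rule. Of the 9 other than Kdr, 3 were higher and 1 was lower. Flt1, the decoy-like VEGF receptor, stood at 557 CPM in T11-Apobec and 755 CPM in KPB25Luv, a log2 ratio of −0.44. Nrp2, a co-receptor, stood at 59.3 CPM in T11-Apobec and 125 CPM in KPB25Luv, with 72.4 CPM in KPB25Luv T cells. Of 6 angiopoietin and Tie genes, 1 was higher, Angpt2, and 0 lower, while its receptor gene Tek stood at 37.2 CPM in T11-Apobec and 44.6 CPM in KPB25Luv and Tie1 at 110 CPM in T11-Apobec and 96.7 CPM in KPB25Luv. Ligand and receptor differed in the apelin pair as well: Aplnr, the apelin receptor, was lower at 151 CPM in T11-Apobec against 289 CPM in KPB25Luv, a log2 ratio of −0.93 (−1.18 to −0.68), whereas Apln was higher. In the list of 6 apelin and adrenomedullin genes, 2 were higher and 2 lower.

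Among 11 measured Notch genes, 2 were higher, 4 were lower and the median was 0.04. The target Hes1 was higher at 233 CPM in T11-Apobec against 131 CPM in KPB25Luv, and the ligand Dll1 lower with 12 UMIs in T11-Apobec against 20 in KPB25Luv. TGF-beta and BMP genes had 2 higher and 3 lower of 15 (median 0.04). Tgfb1, a ligand gene of that list, was lower at 180 CPM in T11-Apobec against 513 CPM in KPB25Luv, with 117 CPM in T11-Apobec and 149 CPM in KPB25Luv T cells. Flow-responsive genes had 1 higher and 1 lower of 9, and Klf2, the shear-stress factor, stood at 420 CPM in T11-Apobec and 368 CPM in KPB25Luv. Wnt and barrier genes had 0 higher and 1 lower of 8, and cell-junction genes 0 higher and 2 lower of 14. Without clusters 7 and 8, Wnt and barrier genes had 2 higher and 1 lower, and cell-junction genes 4 higher and 1 lower.

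Matrix genes were close to level. Of 17 basement membrane and matrix genes, 1 was higher and 2 were lower (median −0.07). Sparc, a collagen-binding matrix protein, stood at 8065 CPM in T11-Apobec and 7088 CPM in KPB25Luv, Col4a1 at 1104 CPM in T11-Apobec and 1301 CPM in KPB25Luv and Col4a2 at 1412 CPM in T11-Apobec and 1244 CPM in KPB25Luv, the last pair being the collagen IV chains of the vessel basement membrane. Fn1, fibronectin, was higher at 464 CPM in T11-Apobec against 197 CPM in KPB25Luv, but T cells held 464 CPM in T11-Apobec and 471 CPM in KPB25Luv. Of 12 endothelial-to-mesenchymal genes, 8 were higher and 1 was lower (median 1.10). Without clusters 7 and 8, 5 of 9 were higher and 1 was lower (median 0.63). Col1a1, a fibroblast collagen in that list, stood at 8.11 CPM in T11-Apobec without the 2 clusters and at 37.2 CPM with them. Only 3 of the 12 were clear genes.

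Among 17 leukocyte adhesion and recruitment genes, 3 were higher and 8 lower (median −0.44). Their 9 clear genes had 1 higher and 6 lower. Antigen presentation showed 3 higher and 3 lower of 15 class I genes, with B2m at 3509 CPM in T11-Apobec and 2263 CPM in KPB25Luv and H2-D1 at 2449 CPM in T11-Apobec and 2927 CPM in KPB25Luv. Class II genes had 2 higher and 0 lower of 7 over all cells, but 1 higher and 3 lower of 6 without clusters 7 and 8, where the macrophage-marked cells lay. H2-Eb1, a class II chain, had 110 UMIs (53.9 CPM) in T11-Apobec and 0 in KPB25Luv endothelial cells, with 3.53 as the lower end of the interval of its log2 ratio. Other kept cells showed the same imbalance, 419 CPM in T11-Apobec against 8.06 CPM in KPB25Luv, and T11-Apobec T cells stood above the endothelial cells at 652 CPM.

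Interferon-response genes went both ways, with 5 higher and 6 lower of 25. Gbp4, a guanylate-binding protein, was higher at 74.97 CPM in T11-Apobec against 19.8 CPM in KPB25Luv, with 58.1 CPM in T11-Apobec and 14.9 CPM in KPB25Luv T cells. Ly6a, the stem cell antigen Sca-1, was lower at 254 CPM in T11-Apobec against 1010 CPM in KPB25Luv, a log2 ratio of −1.99 (−2.15 to −1.83), with 182 CPM in T11-Apobec and 99.2 CPM in KPB25Luv T cells. Ifitm3, an antiviral membrane protein, was lower at 1756 CPM in T11-Apobec against 2761 CPM in KPB25Luv. NF-kB and inflammation genes had 1 higher and 5 lower of 12, and dissociation stress genes 4 higher and 3 lower of 17. Dusp1, a phosphatase in the stress list, stood at 309 CPM in T11-Apobec and 120 CPM in KPB25Luv, close to T cells at 267 CPM in T11-Apobec and 102 CPM in KPB25Luv.

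Metabolic lists were mixed. Of 19 glycolysis and hypoxia genes, 1 was higher and 2 were lower (median −0.04), although several tip-cell genes known to respond to hypoxia were higher. Fatty acid and caveolar genes had 3 higher and 2 lower of 14. Cav1, the main caveolar coat protein, was higher at 723 CPM in T11-Apobec against 265 CPM in KPB25Luv, a log2 ratio of 1.44 (1.24 to 1.66), with 26.1 CPM in T11-Apobec and 54.4 CPM in KPB25Luv T cells. Coagulation and platelet-interaction genes had 4 higher and 3 lower of 14, among them Thbs1, the anti-angiogenic thrombospondin 1, higher at 63.2 CPM in T11-Apobec against 17.4 CPM in KPB25Luv. Tspan8, a tetraspanin, had 55 UMIs in T11-Apobec and 3 in KPB25Luv, a log2 ratio of 2.65 (1.23 to 5.18).

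Of 20 cell-cycle genes, 6 were higher and 1 was lower (median 0.42), and 11 were higher and 1 was lower without clusters 7 and 8. None of them was a clear gene. Cells with at least 3 UMIs of 8 mitotic genes were 76 of 303 (25.1%) in T11-Apobec and 42 of 78 (53.8%) in KPB25Luv before thinning. After thinning to 2000 UMIs they were 49 of 294 (16.7%, 12.6 to 21.4%) in T11-Apobec and 6 of 78 (7.69%, 2.88 to 16.0%) in KPB25Luv, the opposite order, with intervals that overlap. Top2a and Mki67, proliferation genes, stood at 65.7 CPM in T11-Apobec and 65.7 CPM in KPB25Luv, and at 37.2 CPM in T11-Apobec and 29.8 CPM in KPB25Luv. Thinned, Top2a was found in 7.14% of T11-Apobec and 12.8% of KPB25Luv endothelial cells, under the 21.3% of T11-Apobec and 19.1% of KPB25Luv T cells, so no order of cycling between the models was read from these values.

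A fixed rule named the 15 highest and 15 lowest genes by the interval end nearest to 0. Of the 15 higher, 7 were not matched in T cells, a match being a T cell level of at least 25% of the endothelial level and a T cell ratio past 1.5-fold the same way. Among these were Pgf, Apln, Esm1, Npr1 and C1qtnf9. Npr1, the receptor of atrial natriuretic peptide, had 102 CPM in T11-Apobec against 19.8 CPM in KPB25Luv, a log2 ratio of 2.33 (1.63 to 3.20). C1qtnf9, a secreted relative of complement C1q, had 89.7 CPM in T11-Apobec against 17.4 CPM in KPB25Luv, and no UMI in T11-Apobec T cells. A low T cell level can still carry the same order. Of the 15 higher genes, 13 were past 1.5-fold higher in T11-Apobec T cells and 10 in the other kept cells, whatever their level there. The share of all genes past the fold in those cells was not taken. Such counts, for the higher and the lower genes, thus have no background to be read against. Pgf had 21.3 CPM in T11-Apobec and 1.41 CPM in KPB25Luv T cells, 9.25% of the endothelial level in T11-Apobec, and Esm1 10.65 CPM in T11-Apobec and 0.530 CPM in KPB25Luv T cells. In the other kept cells Pgf had 45.5 CPM in T11-Apobec and 3.20 CPM in KPB25Luv, and Esm1 24.75 CPM in T11-Apobec and 0.278 CPM in KPB25Luv. The same order of Pgf and Esm1 was thus found outside the members, and where that RNA came from was not tested.

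The other 8 higher genes were Gbp2b, Tpm3-rs7, Crip1, Pglyrp1, Mndal, Ctsl, Cox17 and Tnni1, each also higher in T11-Apobec T cells. Gbp2b, a guanylate-binding protein, had 70 UMIs in T11-Apobec and 0 in KPB25Luv endothelial cells, with 2.87 as the lower end of the interval of its log2 ratio. Crip1, a LIM-domain protein, had 1698 CPM in T11-Apobec against 419 CPM in KPB25Luv endothelial cells, and 1396 CPM in T11-Apobec against 514 CPM in KPB25Luv T cells. Tpm3-rs7, Gbp2b and Csf2rb2 have near-identical relatives, as do the Ly6 and H2 genes, and reads may have been split or lost among them, so these values are uncertain.

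Of the 15 lower genes, 11 were not matched in T cells: Lrg1, Nefl, Col13a1, Ms4a6d, Gja5, Cd300lg, Gpx3, Atp8b1, Abcc9, Ehd3 and Csf2rb2. Whatever their level there, 9 of the 15 were past 1.5-fold lower in T11-Apobec T cells and 11 in the other kept cells. Lrg1 was among both. It had 5.81 CPM in T11-Apobec and 15.3 CPM in KPB25Luv T cells, and 3.98 CPM in T11-Apobec and 22.4 CPM in KPB25Luv other cells. Where that RNA came from was not tested. Nefl, a neurofilament chain better known from neurons, had 8 UMIs (3.92 CPM) in T11-Apobec and 59 UMIs (73.2 CPM) in KPB25Luv, a log2 ratio of −4.15 (−5.50 to −3.15), with 0 CPM in T11-Apobec and 0.706 CPM in KPB25Luv T cells. Col13a1, a transmembrane collagen, had 9.80 CPM in T11-Apobec against 117 CPM in KPB25Luv, a log2 ratio of −3.55. Gpx3, a secreted glutathione peroxidase, had 30.4 CPM in T11-Apobec against 179 CPM in KPB25Luv. Abcc9, the sulfonylurea-binding subunit of a potassium channel and one of the pericyte markers, had 20.6 CPM in T11-Apobec against 117 CPM in KPB25Luv and was found in 53.8% of the unthinned KPB25Luv cells. Of the 4 lower genes that were matched in T cells, Ly6e, a membrane protein of the Ly6 family, had 247 CPM in T11-Apobec against 1300 CPM in KPB25Luv endothelial cells, and 281 CPM in T11-Apobec against 1076 CPM in KPB25Luv T cells. Gdpd3 and Ccdc85b were also among them.

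**Figure D4:**
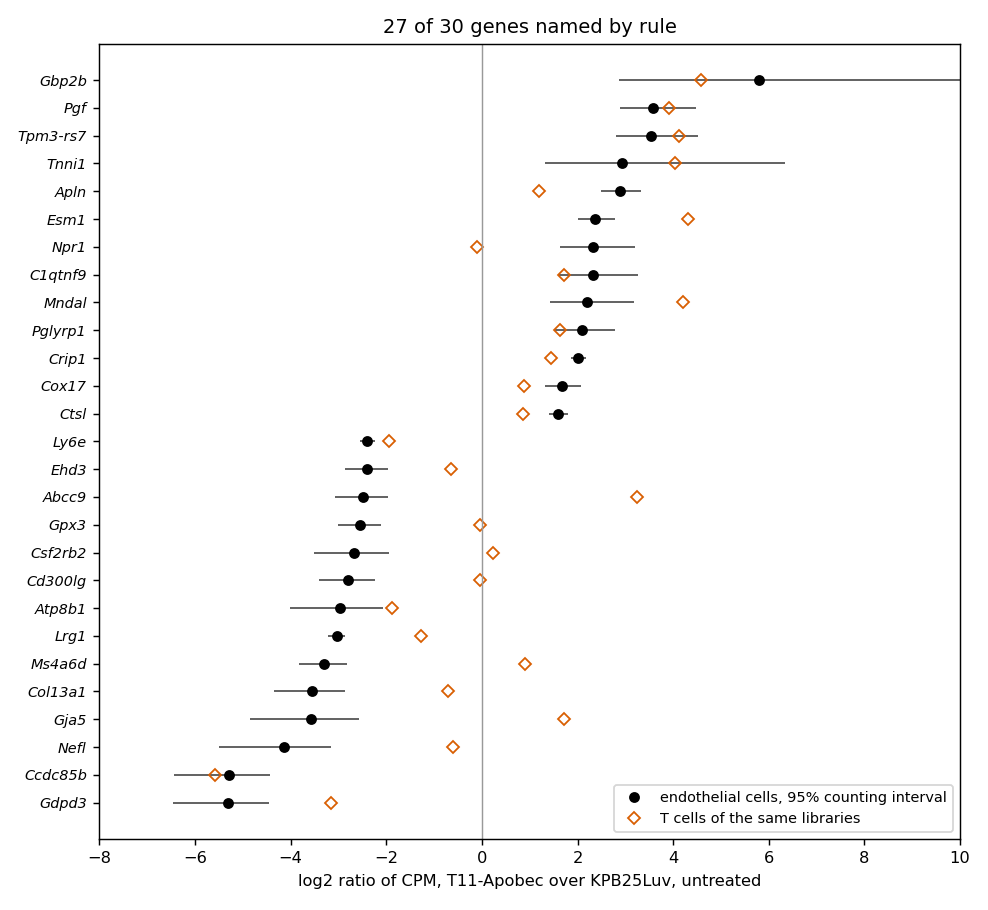
Log2 ratio of CPM, T11-Apobec over KPB25Luv, in untreated endothelial cells for 27 of the 30 genes named by rule (black points, 95% counting intervals), with the ratio in T cells of the same libraries (open diamonds). Pgf (3.58) and Apln (2.89) lie among the higher genes and Lrg1 (−3.04) and Gja5 (−3.57) among the lower ones, and Crip1 and Ly6e have T cell ratios beside their endothelial ones; the interval of Gbp2b, with no UMI in KPB25Luv, has no upper end.

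Vessel subtypes were described by clustering the members of each untreated library on their own, which gave 8 clusters in T11-Apobec and 5 in KPB25Luv. A cluster's genes are those that made it, so their values describe it and test nothing. A marker was called raised in a cluster when at least 20% of its cells had a UMI and its level was at least 2-fold that of the other members. The share of all genes raised in each cluster was not taken. Counts of raised markers thus have no background to be read against, and several lists can be raised in 1 cluster. A zone name was used only where at least 3 markers of that list were raised and at least 1 of them was among the cluster's 10 leading genes.

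In untreated T11-Apobec, clusters 5 and 2 met the condition for the name tip-like, cluster 2 only through Cxcr4 among its leading genes. Cluster 5 held 34 cells and had 7 tip-cell genes and 8 glycolysis and hypoxia genes raised, with Pgf, Adm and the lactate exporter Slc16a3 among its leading genes. Apln reached 982 CPM there, Esm1 1381 CPM, Pgf 1432 CPM and Adm 266 CPM, and the glucose transporter gene Slc2a1 276 CPM. Apln, Esm1, Pgf and Adm are the genes whose promoters are printed above. Cluster 2, with 59 cells, was led by Bmp2 and Cxcr4 and had 6 tip-cell and 5 matrix genes raised. Its Cxcr4 stood at 296 CPM, but its Apln at 237 CPM and Pgf at 154 CPM lay below those of cluster 5. They also lay below the 472 and 230 CPM over all T11-Apobec members. Its raised tip-cell genes were Cxcr4, Unc5b, Nid2, Mcam, Cd276 and Inhbb, and none of Apln, Esm1, Angpt2, Pgf and Adm was raised. The 3 arterial genes Efnb2, Hey1 and Fbln5 were raised too. For these reasons the name of cluster 2 is uncertain. Cluster 6, with 25 cells, had 9 tip-cell and 4 capillary genes raised, Gpihbp1 at 5121 CPM and Fabp4 at 5777 CPM among them, with Hoxd10 as its leading gene. Esm1, Angpt2, Pgf and Adm were among its raised tip-cell genes, and 5 glycolysis and hypoxia genes were raised too, so these traits were shared with cluster 5. Its 10 leading genes held no marker of either list, so cluster 6 was not named. It nevertheless had more tip-cell genes raised than cluster 2, 9 against 6.

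The 62 cells of cluster 1 were led by Lrg1 at 471 CPM and had no list with 3 raised members. It held 27 of the library's 32 Ackr1 UMIs and 15 of its 17 Selp UMIs. Cluster 3, with 55 cells, had 17 of 20 cell-cycle genes raised. Cluster 4, with 36 cells, was arterial-like by 6 raised arterial genes, Gja4 at 454 CPM and Hey1 at 164 CPM among them, and was led mostly by interferon genes, of which 17 were raised. Isg15, an interferon-induced ubiquitin-like protein, stood at 538 CPM there, against 30.7 CPM in cluster 5. Gja5 had 8 of its 9 T11-Apobec UMIs in cluster 4.

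In untreated KPB25Luv, a venous-like and an arterial-like cluster were found. Cluster 2, with 18 cells, was venous-like, with Ackr1, Sele and Selp among its leading genes and 8 venous genes raised. Ackr1 reached 247 CPM there and held 44 of the library's 46 UMIs, and Selp 219 CPM. It also had 7 capillary and 7 interferon-response genes raised, and Fabp4 at 6205 CPM. Cluster 4, with 12 cells, was arterial-like, with Gja5 at 327 CPM and Gja4 at 1332 CPM, each in 83.3% of its cells, and 9 arterial genes raised. It had 4 Notch and 7 interferon-response genes raised as well. The tip-cell genes Esm1, Cxcr4 and Unc5b were also raised there, while its Apln was at 0 UMIs.

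Cluster 3 of KPB25Luv, with 17 cells, had 12 tip-cell genes raised, none of them among its 10 leading genes. It was left unnamed for that reason only, so the names do not show that tip-like clusters were confined to T11-Apobec. Kcne3 reached 1447 CPM there, Inhbb 274 CPM and Ednrb 339 CPM, while Apln stood at 177 CPM and Esm1 at 91.4 CPM. Cluster 5, with 11 cells, had 12 glycolysis and hypoxia genes raised, with Slc16a3 at 727 CPM and Slc2a1 at 506 CPM, and 5 tip-cell genes. Its Pgf stood at 103.8 CPM and its Adm at 38.9 CPM, and it had no Apln UMI. At a resolution of 0.5, however, a KPB25Luv cluster of 24 cells had 9 glycolysis and hypoxia genes and 11 tip-cell genes raised together, Apln, Pgf and Adm among them. The 20 cells of cluster 1 had 12 cell-cycle genes raised together with 5 macrophage and 3 epithelial markers.

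Lrg1 cut across the KPB25Luv clusters. Its level there was between 1194 CPM in cluster 1 and 1697 CPM in cluster 2, with a UMI in at least 94.1% of the cells of each. In T11-Apobec it was between 10.2 CPM in cluster 5 and 471 CPM in cluster 1. The highest T11-Apobec cluster thus lay below the lowest KPB25Luv cluster. When both libraries were clustered together, 9 clusters formed, and the largest KPB25Luv one held 55 of its 78 cells and 0 of T11-Apobec. The leading genes of that cluster included Nefl and Col13a1, but also the T cell genes Cd2, Trbc1 and Cd3d. Ccdc85b, matched in T cells, was another, and the epithelial markers Epcam, Krt8, Krt18 and Wfdc2 were raised. What part RNA of other cells had in this separation was not tested. A cluster of 9 T11-Apobec cells (2.97% of that library's members) and 18 KPB25Luv cells (23.1%) had Ackr1, Gja5 and Selp among its leading genes. The number of clusters depends on the resolution: at 1.5, T11-Apobec also gave a cluster of 7 cells with Ackr1 and Selp among its leading genes and 10 venous genes raised.

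**Figure D5:**
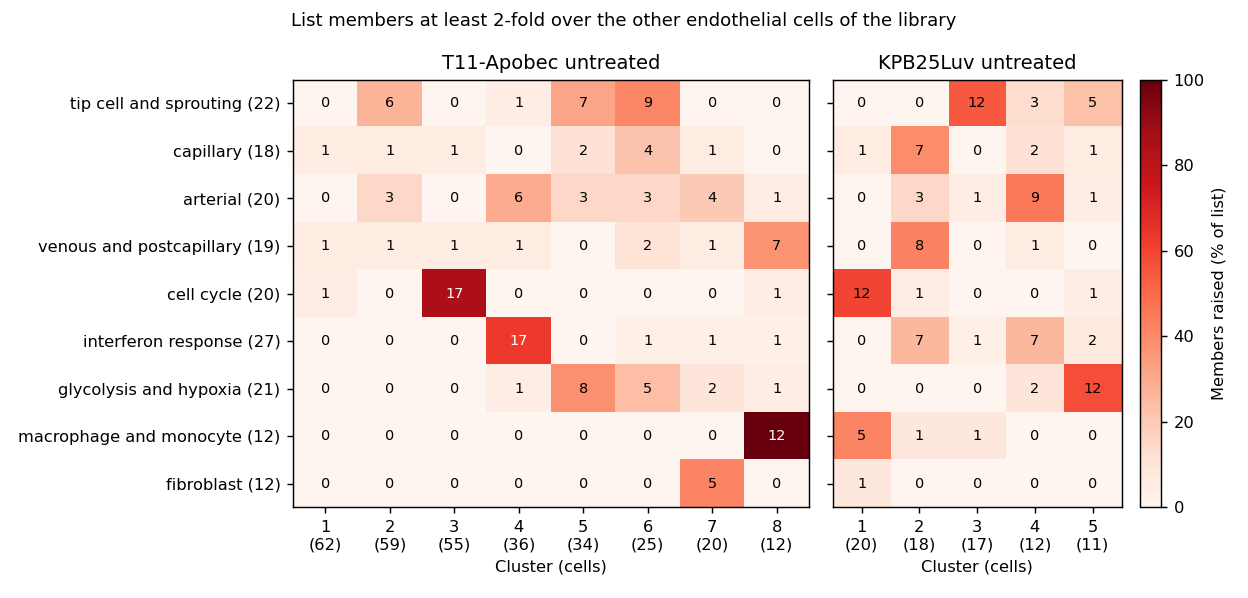
Number of members of each gene list at least 2-fold over the library's other endothelial cells, for the clusters of untreated T11-Apobec (left) and untreated KPB25Luv (right), coloured by the percentage of the list. Cluster 5 of T11-Apobec has 7 tip-cell and 8 glycolysis and hypoxia genes raised, and clusters 4 and 2 of KPB25Luv carry 9 arterial and 8 venous genes. The share of all genes raised in each cluster was not taken.

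The treated libraries held 7 endothelial cells each, too few for a comparison of genes, and single cells set their sums. Their median depth was 11281 UMIs in treated and 5068 in untreated T11-Apobec, and 7043 in treated and 8788 in untreated KPB25Luv. Apln was found in 5 of 7 treated T11-Apobec cells (72 UMIs) and in 180 of 303 untreated ones, and in 2 of 7 treated KPB25Luv cells (12 UMIs) and 16 of 78 untreated ones. Lrg1 was found in 1 of 7 treated T11-Apobec cells and in 6 of 7 treated KPB25Luv cells, the same order as in the untreated libraries. Of 125 Gja4 UMIs in treated T11-Apobec cells, 124 were in 1 cell, and all 531 UMIs of Nts, a neuropeptide gene of lymphatic vessels, in treated KPB25Luv were in 1 cell. Ly6c1 was found in all 7 cells of each treated library, with 87 UMIs in T11-Apobec and 251 in KPB25Luv, of which 167 were in 1 cell. Cxcl9, an interferon-induced chemokine for T cells, had 7 UMIs in 3 treated T11-Apobec cells, against 26 UMIs in 15 of the 303 untreated ones. In treated KPB25Luv it had 148 UMIs in 2 of 7 cells, against 5 UMIs in 5 of the 78 untreated cells. The treated T11-Apobec counts here include the 2 members with under 3 of the 23 pan-endothelial genes. Whether those 2 members held Cxcl9 UMIs was not tested.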

How the data were processed

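Single-cell RNA was measured in 4 libraries, each a group of its own, prepared per the labels' protocols with 10x Genomics 3' chemistry v2. The deposited values were raw UMI counts per gene and barcode over 31054 features. They came from Cell Ranger 3.0.2 (file headers) and the mm10 build (submitters' processing notes). The labels aimed at 5000 to 10000 cells per library, and the files held 5509 to 11304 barcodes and 30369476 to 98475778 UMIs. Library pairs shared 34 to 125 barcodes, and none was endothelial in both. The members and the 35 gene lists were chosen with earlier results of these data known.

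Counts were summed over endothelial cells, scaled to CPM and compared as log2 ratios after adding 0.5 counts, with exact intervals and without a test. Genes needed 20 UMIs, and 1.5-fold counted as higher or lower. Doublets were kept in the main values. The 30 genes named by rule also needed 30 UMIs and a UMI in 10% of cells in the library with the higher value, and a CPM at least that of the library's other cells. Mitochondrial, ribosomal protein, haemoglobin, histone, antigen receptor, sex-specific and unnamed genes were left out. In each list, 2 to 5 members were named by UMI number or ratio, and in each cluster its leading genes. Other genes were named after their values were seen. Values of 3 of the 30 genes are not reported here. Clusters used 1000 variable genes, 15 components, 10 neighbours and Leiden resolution 1. Software was scanpy 1.11.5, leidenalg 0.10.2, scipy 1.17.1, numpy 2.4.6 on Python 3.11.15, and edgeR 4.0.16 for TMM scaling as an alternative. The ratio was tested on simulated data. Gene positions were from GENCODE on GRCm38 and promoters from RefSeq. Alternatives changed the rule's limits, doublets, depth, scaling, filters, fold and clustering.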

Additional observations from a re-analysis of the deposited data

Results flagged for a closer look

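NeomycinResistanceGene, a transcript added to the reference that no comparison above uses, had 11 UMIs in 4 endothelial cells of the untreated T11-Apobec library (5.39 CPM) and 0 in those of the untreated KPB25Luv library. All 11 lay in cluster 7, the 20 cells with raised fibroblast markers. The other kept T11-Apobec cells held it at 35.8 CPM. Part of the results are given with and without the cells of that cluster, and the origin of the transcript in them was not tested.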

How the results depend on the processing

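The untreated T11-Apobec share (2.94%) was 2.59% when the 3 genes had to sum to at least 5 UMIs and 2.10% when cells were thinned to 2000 UMIs before the rule, and the untreated KPB25Luv share (1.2%) was then 0.819%. Genes past the fold, 1196 higher and 1322 lower, were 770 and 855 with thinned cells, 2471 and 3703 with no filter on low counts, 693 and 679 with at least 50 UMIs, and 471 and 519 at 2-fold. The tip-cell median (0.37) was 0.67 with thinned cells. The capillary median (−0.59) was −0.50 and −0.58 with a sum of at least 2 and 5, −0.56 with a mitochondrial limit of 20%, −0.47 with doublets removed, −0.43 without cells rich in other types' markers, −0.30 as the mean of the cells' own CPM, −0.38 with thinned cells, −0.56 when centred on all genes, −0.57 with TMM, −0.44 without clusters 7 and 8 and −0.58 without Kdr, a gene of the rule. The arterial median (−0.62) was −0.47 with a sum of at least 2, −0.54 with the mitochondrial limit of 20%, −0.56 with doublets removed, −0.58 without cells rich in other types' markers, −0.57 as the mean of the cells' own CPM, −0.41 with thinned cells, −0.51 without clusters 7 and 8 and −0.55 without genes near their level in T cells. These medians kept their sign but missed 1.5-fold, and the cause was not tested. Clustered together, the libraries gave 2 clusters with at least 5 KPB25Luv cells in place of 5. The venous median stayed past 1.5-fold lower in every alternative run. The alternatives without clusters 7 and 8, without genes near T cell level and without Kdr were chosen after seeing the data.

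No paired analysis was possible because each group had 1 library. No group had a replicate, so the differences between models are differences between 2 tumours' libraries.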
